A study of Mus musculus with 7 samples.

Results

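Of 43 genes of sugar metabolism examined in mature white adipocytes, Pgm2 and Slc2a1 rose and Pdk2 fell in mice lacking FFA2 in adipocytes. The call of Pdk2 was close to the threshold (edgeR adjusted p = 0.0484). In 7 fits that each left out a library, Pgm2 kept its call in 5, Slc2a1 in 2 and Pdk2 in 1. Most enzymes of glycolysis, glycogen turnover and the pentose phosphate pathway lay slightly below their control level on average, without passing the test. Summed glycolysis and pentose phosphate genes were below the controls in knockout libraries 2 and 4, and not in 1 and 3. The genes were taken by symbol: glucose transporters 1 and 3, the enzymes of glycolysis, glycogen metabolism and the pentose phosphate pathway, the pyruvate dehydrogenase kinases and pyruvate carboxylase. Pgm2 and Slc2a1 had been singled out with their rise already known. The 43 symbols matched 44 of the 57010 rows of the count table, since Aldoa has an additional identifier, and 42 rows were among the 17039 genes with enough counts to be tested. Aldoc, the brain-type aldolase, and the additional Aldoa identifier were too low, with at most 22 counts in any library.

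FFA2, the product of Ffar2, is a receptor for short-chain fatty acids. The study removed it from adipocytes and asked, with the samples described here, how adipocyte expression changed on a standard chow (SC) diet. RNA was sequenced from adipocytes freed with collagenase from perigonadal fat in 7 samples from male mice, 3 labelled FFA2 fl/fl and 4 labelled Adipoq-F2-KO. All animals had eaten Teklad LM-485 chow, without other treatment, until 20 weeks of age. Both genotypes carried floxed Ffar2 alleles. The paper describes co-housing of the genotypes from birth, but not up to the age sampled here. The Adipoq-F2-KO mice also carried a Cre transgene driven by the adiponectin promoter, which is active in adipocytes, and the controls did not, so effects of Cre itself and of FFA2 loss cannot be told apart. The strain is not given in the sources used here, nor is it stated whether a sample is a single animal or a pool, or how samples fall by litter or day. P-values therefore measure the spread between these samples.

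Ffar2 itself was measured at 37.5, 33.9 and 32.0 CPM in controls and at 1.68, 1.15, 1.33 and 2.58 CPM in the knockout, without overlap (log2 fold change -4.36 ± 0.22 SE, edgeR adjusted p = 7.97e-06). CPM are counts scaled to a library total of 1e6 after TMM normalization. Library totals ran from 30478997 to 39992605 counts, with no difference by genotype detected (exact permutation test, p = 0.486). White adipocyte markers dominated in all libraries, with Adipoq between 2419 and 3762 CPM, but 17 of the 18 adipocyte markers lay below their control level, and the summed adipocyte markers were 78900 to 86846 CPM in FFA2 fl/fl and 63593 to 79421 CPM in Adipoq-F2-KO, with overlap. Summed macrophage markers were 714 to 854 CPM in controls and 980 to 1132 CPM in the knockout, with 17 of 20 genes above 0 in fold change and Lyz2 and Cd68 called. Summed endothelial markers were 1554 to 2025 against 2081 to 3276 CPM (15 of 15 above 0), and summed fibroblast progenitor markers 1400 to 1794 against 1801 to 2078 CPM (12 of 14 above 0). Erythroid markers summed to 97.6 to 224 against 209 to 372 CPM, with overlap, and neutrophil markers to 10.3 to 11.7 against 13.8 to 16.4 CPM. Of the 4 neutrophil markers tested, 2 lay above 0 and 2 below, Mmp9 was higher in all knockout libraries, Elane was lower in all of them, and Ly6g was at 0 throughout. Lymphocyte markers (2.03 to 21.3 against 2.06 to 12.5 CPM) and mesothelial markers (12.7 to 58.7 against 12.1 to 16.4 CPM) overlapped, as did epididymal markers at up to 22.5 CPM. Male germ cell markers summed to 254 CPM in Adipoq-F2-KO library 2 and to 44.2 to 61.9 CPM elsewhere, where Odf2 made up most of the sum. The protamine gene Prm2 was 54.1 CPM in that library and at most 5.31 CPM in the others. Mitochondrial genes took 4.41% to 5.77% of the counts in FFA2 fl/fl and 6.61% to 10.3% in Adipoq-F2-KO. In bulk RNA of this kind, fewer cells of a type and less RNA per cell cannot be told apart, and the part of these shifts in the differences below was not tested.

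Glucose enters adipocytes through membrane transporters and is trapped by hexokinases as glucose 6-phosphate. From there it runs down glycolysis to pyruvate, is stored as glycogen by way of glucose 1-phosphate, or enters the pentose phosphate pathway, which makes ribose phosphates and the NADPH used in fatty acid synthesis. In white fat these routes supply the glycerol backbone and carbon for triglyceride, and the pyruvate dehydrogenase kinases set how much pyruvate enters the mitochondrial acetyl-CoA pool.

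Pgm2 showed the largest log2 fold change of the 42 tested genes. The FFA2 fl/fl libraries held 13.4, 13.7 and 13.6 CPM and the Adipoq-F2-KO libraries 24.8, 23.7, 27.0 and 30.8 CPM. The control values lay within a narrow band, and the lowest knockout library was well above it. The means were 13.6 ± 0.18 (SD, n = 3) and 26.6 ± 3.13 CPM (SD, n = 4), a 1.96-fold difference (log2 0.97 ± 0.12 SE, edgeR adjusted p = 0.0180 over all tested genes). The exact permutation test over libraries gave p = 0.0286, the smallest it can reach with 3 against 4. As Pgm2 was singled out with its rise known, this p-value adds no independent support. It is not adjusted for the number of genes, and the genotypes did not overlap for 17.6% of all tested genes. The gene (ENSMUSG00000029171, chromosome 5, 64250293 to 64285694 in the coordinates of the deposited table) encodes a phosphopentomutase that interconverts ribose 1-phosphate and ribose 5-phosphate and has weaker activity on glucose 1-phosphate. Its name was changed: older annotation called it Pgm1, and used Pgm2 for the gene on chromosome 4 now called Pgm1. Gene identifiers were therefore used to tell them apart.

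Slc2a1, which encodes the widely expressed glucose transporter GLUT1, was measured at 30.3, 37.0 and 39.0 CPM in FFA2 fl/fl and at 49.6, 56.1, 59.6 and 72.8 CPM in Adipoq-F2-KO. The genotypes did not overlap, and knockout library 4 was the highest. The means were 35.4 ± 4.53 (SD, n = 3) and 59.5 ± 9.79 CPM (SD, n = 4), or 1.68-fold (log2 0.75 ± 0.14 SE, edgeR adjusted p = 0.0396). The exact permutation p was again 0.0286, unadjusted and with the same limit, since Slc2a1 was also singled out with its rise known. Slc2a1 (ENSMUSG00000028645, chromosome 4, 118965908 to 118995180) is also expressed in endothelial cells, and the endothelial markers were likewise highest in knockout library 4, at 3276 CPM, where Pecam1 stood at 404 CPM. The part of such cells in the rise was not tested.

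Among all 17039 tested genes, 136 were called higher (0.798%) and 37 lower (0.217%) at an adjusted p under 0.05, and within these calls Pgm2 and Slc2a1 held different places. By p, Pgm2 ranked 4 among all tested genes and Slc2a1 ranked 89. By size, Pgm2 ranked 51 and Slc2a1 92 among the 136 genes called higher, behind genes with larger fold changes. Of the 42 tested sugar metabolism genes, 2 were called higher and 1, Pdk2, lower, where calls in either direction made up 1.02% of all tested genes. DESeq2 called Pgm2 and Slc2a1 higher and Pdk2 and Pygb lower, against 4.67% and 1.53% of the genes it tested. With a filter of at least 1 count, edgeR called Pgm2, Slc2a1, Pygm and Hk2 higher and Pdk2, Pygb, Pdk4 and Slc2a3 lower, against 3.76% and 1.16% of 28515 genes. The calls depended on single libraries: Pgm2 kept its call in 5 of 7 fits that each left out a library and lost it without FFA2 fl/fl library 1 (adjusted p = 0.145) or 3 (0.0567). Slc2a1 kept its call in 2 of 7, when Adipoq-F2-KO library 1 or 4 was left out, and had adjusted p-values of up to 0.207 in the other fits. Over these fits the number of all genes called higher ranged from 0 to 151, with the lowest number without FFA2 fl/fl library 1 or 3.

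**Figure D1:**
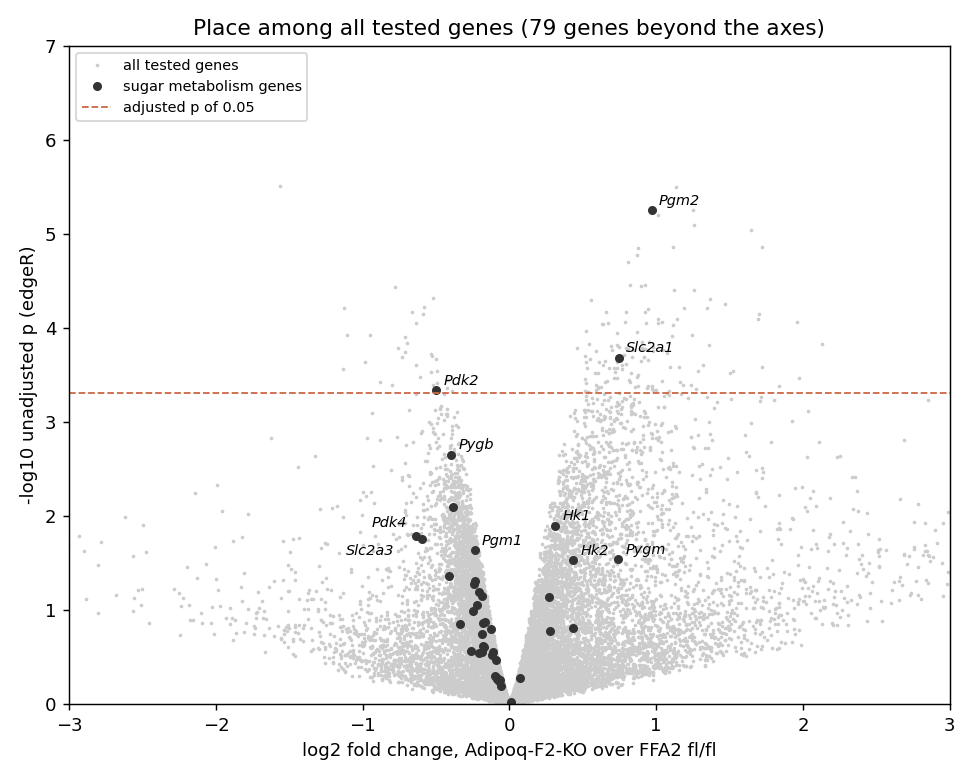
Log2 fold change (Adipoq-F2-KO over FFA2 fl/fl, x axis) against -log10 of the unadjusted edgeR p (y axis) for the tested genes, with the sugar metabolism genes in black and the dashed line at an adjusted p of 0.05. Pgm2 and Slc2a1 lie above the line on the right and Pdk2 just above it on the left, and 79 genes lie beyond the axes.

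Most of the other genes lay on the opposite side of 0 from Pgm2 and Slc2a1. The fitted log2 fold change was below 0 in 32 of the 42 genes and above 0 in 10, where 49.6% and 50.4% of all tested genes lay on these sides. The median log2 fold change of the 42 was -0.17, within a range of -0.63 to 0.97, and the median over all tested genes was 0.00. Summed over the genes, Adipoq-F2-KO libraries 1 and 3 (12005 and 12012 CPM) lay within the control range of 11562 to 12714 CPM. Libraries 2 and 4 (10150 and 9849 CPM) lay below it. Lower glycolysis showed the same split (1777 and 1733 against 1320 and 1375 CPM, controls 1557 to 1887). The sums for glycogen synthesis, glycogen breakdown and the pyruvate dehydrogenase kinases lay below the controls in all knockout libraries. At an unadjusted p under 0.05 there were 5 higher genes and 8 lower ones, beside 10.5% and 7.37% of all tested genes. Libraries of the genotypes did not overlap for 4 genes on the higher side (Pgm2, Slc2a1, Hk1 and Pygm) and for 6 on the lower side (Pdk2, Pygb, Pfkm, Pdk4, Pgm1 and Gpi1), against 8.86% and 8.72% of all tested genes. The white adipocyte markers had a median log2 fold change of -0.24, and the part of adipocyte content in the values of the sugar genes was not tested.

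**Figure D2:**
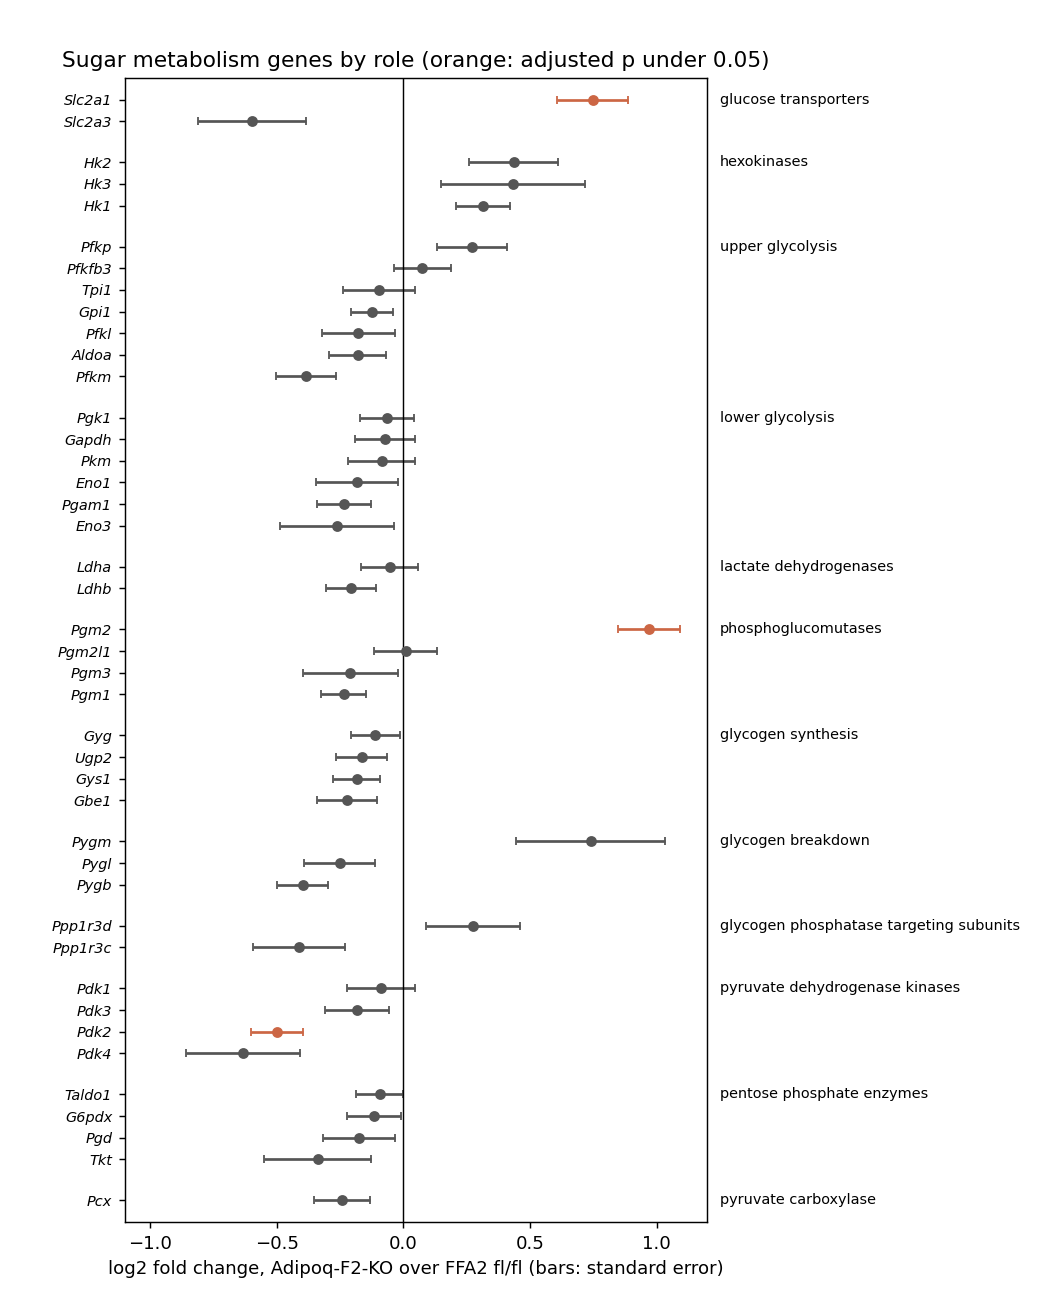
Log2 fold change of the 42 tested genes (x axis, Adipoq-F2-KO over FFA2 fl/fl, bars are standard errors) arranged by role, with the genes called at an adjusted p under 0.05 in orange. Pgm2 (0.97) and Slc2a1 (0.75) stand to the right of their families and most other genes lie just left of 0.

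The regions upstream of the 3 called genes are printed because these genes passed the test, each with its match to a core sequence searched for. From the RefSeq promoter table (build GRCm38.p6, 250 bases before a transcript start and 50 after) 42 of the 43 symbols had a window, 59 windows in all, and Slc2a3 was not among them. The 250 bases before the start are given 5′ to 3′ along the gene. Capitals mark the letters ACGTG or its reverse complement CACGT, the only form of the hypoxia response element core that was searched. They mark it in Slc2a1 (chr4:119108495-119108744, plus strand, 36 bases before the start) and Pgm2 (chr5:64092689-64092938, plus strand, 62 bases before the start). In Pdk2 (chr11:95041372-95041621, minus strand) they mark CACGTG, an E-box that contains the core on both strands. The ACGTG within it begins 125 bases before the start. Pdk2 has a further window in the table, in which none of the motifs searched was found and which is not printed.
Slc2a1: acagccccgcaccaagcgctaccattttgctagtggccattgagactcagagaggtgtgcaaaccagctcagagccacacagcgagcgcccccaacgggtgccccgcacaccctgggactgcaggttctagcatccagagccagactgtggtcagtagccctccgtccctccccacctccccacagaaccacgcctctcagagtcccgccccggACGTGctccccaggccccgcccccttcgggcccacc
Pgm2: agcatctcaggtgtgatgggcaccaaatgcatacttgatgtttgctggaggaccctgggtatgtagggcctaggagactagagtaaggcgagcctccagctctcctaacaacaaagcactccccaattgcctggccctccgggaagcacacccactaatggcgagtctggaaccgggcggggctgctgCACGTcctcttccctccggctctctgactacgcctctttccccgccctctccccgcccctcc
Pdk2: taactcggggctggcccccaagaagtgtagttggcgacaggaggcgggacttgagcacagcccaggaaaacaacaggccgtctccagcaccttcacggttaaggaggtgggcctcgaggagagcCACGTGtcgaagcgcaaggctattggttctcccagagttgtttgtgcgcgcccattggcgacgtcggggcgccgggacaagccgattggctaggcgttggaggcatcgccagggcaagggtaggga
Read on both strands, ACGTG occurred in 31 of the 59 windows (52.5%), covering 28 of 42 genes, and in 19.6% of all 32851 windows in the table and 24.5% of the 14471 windows of tested genes. CACGTG, which overlaps it, was in 9 windows (15.3%, against 7.15% and 9.56%). The GC box GGGCGG was in 35 windows (59.3%, against 35.7% of all and 59.4% of those of tested genes). These are counts of letters and say nothing about binding, and most genes whose windows hold ACGTG were not called. These coordinates belong to GRCm38.p6 and are not those of the deposited table.

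Slc2a3, the gene of the high-affinity transporter GLUT3, lay on the other side of 0 from Slc2a1 without a call. Its levels were 21.2, 19.6 and 28.2 CPM in FFA2 fl/fl and 11.8, 17.7, 11.0 and 20.3 CPM in Adipoq-F2-KO, with overlap (log2 -0.60 ± 0.21 SE, edgeR adjusted p = 0.184). Slc2a4, which encodes the insulin-responsive transporter GLUT4 and marks adipocytes, was outside the 43 genes and was measured at 217, 222 and 254 CPM and at 191, 172, 193 and 167 CPM (log2 -0.35 ± 0.09 SE, adjusted p = 0.0981). Per kilobase of exon, Slc2a1 made up 11.7%, 13.7% and 12.6% of the summed Slc2a1, Slc2a3 and Slc2a4 signal in control libraries and 20.0%, 23.6%, 22.96% and 29.0% in knockout libraries. Slc2a4 held 82.8% to 84.4% in controls and 67.1% to 77.7% in the knockout. Neither share overlapped between genotypes, and GLUT4 transcripts remained the majority in all 7 libraries. As shares add up to the whole, the smaller Slc2a4 share is not a result separate from the larger Slc2a1 share.

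All 3 hexokinases, which phosphorylate glucose on entry, had fold changes above 0, with none called and 2 at an unadjusted p under 0.05 (median log2 0.43). Hk1 stood at 47.7, 46.2 and 48.3 CPM in FFA2 fl/fl and 55.0, 69.5, 53.4 and 57.8 CPM in Adipoq-F2-KO, without overlap (log2 0.31 ± 0.11 SE, edgeR adjusted p = 0.163). Hk2, the insulin-regulated form, was 321, 550 and 507 CPM against 507, 712, 667 and 602 CPM. Of the control libraries, 1 lay below all knockout libraries, while the lowest knockout library lay under the control at 550 CPM and level with that at 507 CPM, so the groups overlapped. The log2 fold change of 0.44 ± 0.18 SE (edgeR adjusted p = 0.228) dropped to 0.23 without FFA2 fl/fl library 1, the lowest. Hk2 made up 92.0% ± 2.06 (SD, n = 3) of hexokinase signal per kilobase in controls and 92.8% ± 0.816 (SD, n = 4) in the knockout. Hk3, found mainly in myeloid cells, averaged 2.93 and 3.95 CPM (log2 0.43), beside the higher macrophage markers given above.

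In upper glycolysis, 2 of 7 tested genes lay above 0 and 5 below, none called and 1 (Pfkm) at an unadjusted p under 0.05 (median log2 -0.12). The phosphofructokinase isoforms, which commit sugar to glycolysis, did not share a sign. Pfkm, the muscle-type subunit, was 33.0, 34.2 and 32.7 CPM in FFA2 fl/fl and 26.1, 21.8, 30.1 and 24.05 CPM in Adipoq-F2-KO, without overlap but short of a call (log2 -0.38 ± 0.12 SE, edgeR adjusted p = 0.135). Pfkl, the liver-type subunit and the most abundant per kilobase, was 144, 127 and 137 CPM against 145, 107, 137 and 92.7 CPM (log2 -0.18, adjusted p = 0.552). Pfkp, the platelet-type subunit, averaged 61.9 and 74.7 CPM (log2 0.27, adjusted p = 0.324), and its share of phosphofructokinase signal per kilobase was 11.4% to 15.0% in controls and 15.7% to 20.9% in the knockout. Pfkp shares 748 bases of exon with Pitrm1 on the opposite strand, and the strand setting of the counting is not stated, so its level is uncertain. Gpi1, the isomerase that follows hexokinase, averaged 298 ± 18.9 (SD, n = 3) and 273 ± 3.67 CPM (SD, n = 4) with no overlap, but a log2 difference of only -0.12 (adjusted p = 0.463). Pfkfb3, which makes the activator of phosphofructokinase (log2 0.07), the aldolase Aldoa (-0.18) and the triosephosphate isomerase Tpi1 (-0.10) overlapped between genotypes.

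All 6 genes of lower glycolysis lay below 0, with log2 fold changes of -0.26 to -0.06 (median -0.14) and no call. Pgam1, a phosphoglycerate mutase, had the smallest p of them and was the 1 with an unadjusted p under 0.05. It was measured at 85.1, 83.8 and 84.2 CPM in FFA2 fl/fl and at 84.6, 66.2, 72.6 and 63.6 CPM in Adipoq-F2-KO (log2 -0.23 ± 0.11 SE, edgeR adjusted p = 0.277), and knockout library 1 lay inside the control range. Gapdh (-0.07), the kinase Pgk1 (-0.06), the enolases Eno1 (-0.18) and Eno3 (-0.26) and the pyruvate kinase Pkm (-0.09) all overlapped. Gapdh and several other glycolytic genes have processed pseudogenes, and how reads matching more than a single place were counted is not stated. Eno1 accounted for 96.0% of enolase signal per kilobase in controls and 96.1% in the knockout. The lactate dehydrogenase genes, whose products interconvert pyruvate and lactate, also overlapped. Ldha was 790, 720 and 744 CPM against 803, 642, 815 and 634 CPM (log2 -0.05 ± 0.11 SE, adjusted p = 0.843), and Ldhb was 79.7, 83.2 and 84.1 CPM against 76.1, 64.5, 80.1 and 64.6 CPM (log2 -0.21 ± 0.10 SE, adjusted p = 0.308). Knockout libraries 1 and 3 were higher than 2 and 4 for both genes, and Ldha held 81.2% and 82.8% of the pair per kilobase.

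The phosphoglucomutase family contained both the strongest rise and a smaller difference in the other direction. Pgm1 (ENSMUSG00000025791), the main enzyme linking glucose 6-phosphate to glucose 1-phosphate and so to glycogen, was 243, 237 and 244 CPM in FFA2 fl/fl and 201, 214, 222 and 183 CPM in Adipoq-F2-KO. The groups did not overlap, but Pgm1 was not called (log2 -0.24 ± 0.09 SE, edgeR adjusted p = 0.203). As a share of Pgm1, Pgm2 and Pgm2l1 signal per kilobase, Pgm2 made up 5.76%, 6.04% and 5.82% in the control libraries and 12.0%, 11.0%, 11.9% and 15.7% in the knockout libraries. The share of Pgm1 was 92.7% ± 0.095 (SD, n = 3) in controls and 85.8% ± 2.20 (SD, n = 4) in the knockout, without overlap. Shares within a family add up to the whole, so this is not a result separate from the larger Pgm2 share. On this scale Pgm2 remained a minor part of the family in both genotypes. Pgm2l1, which makes glucose 1,6-bisphosphate, the cofactor of these mutases, was measured at 12.1 and 12.2 CPM (log2 0.01). Pgm3, which belongs to UDP-N-acetylglucosamine synthesis, averaged 9.82 and 8.49 CPM (log2 -0.21), and shares 1270 bases of exon with Dop1a on the other strand.

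**Figure D3:**
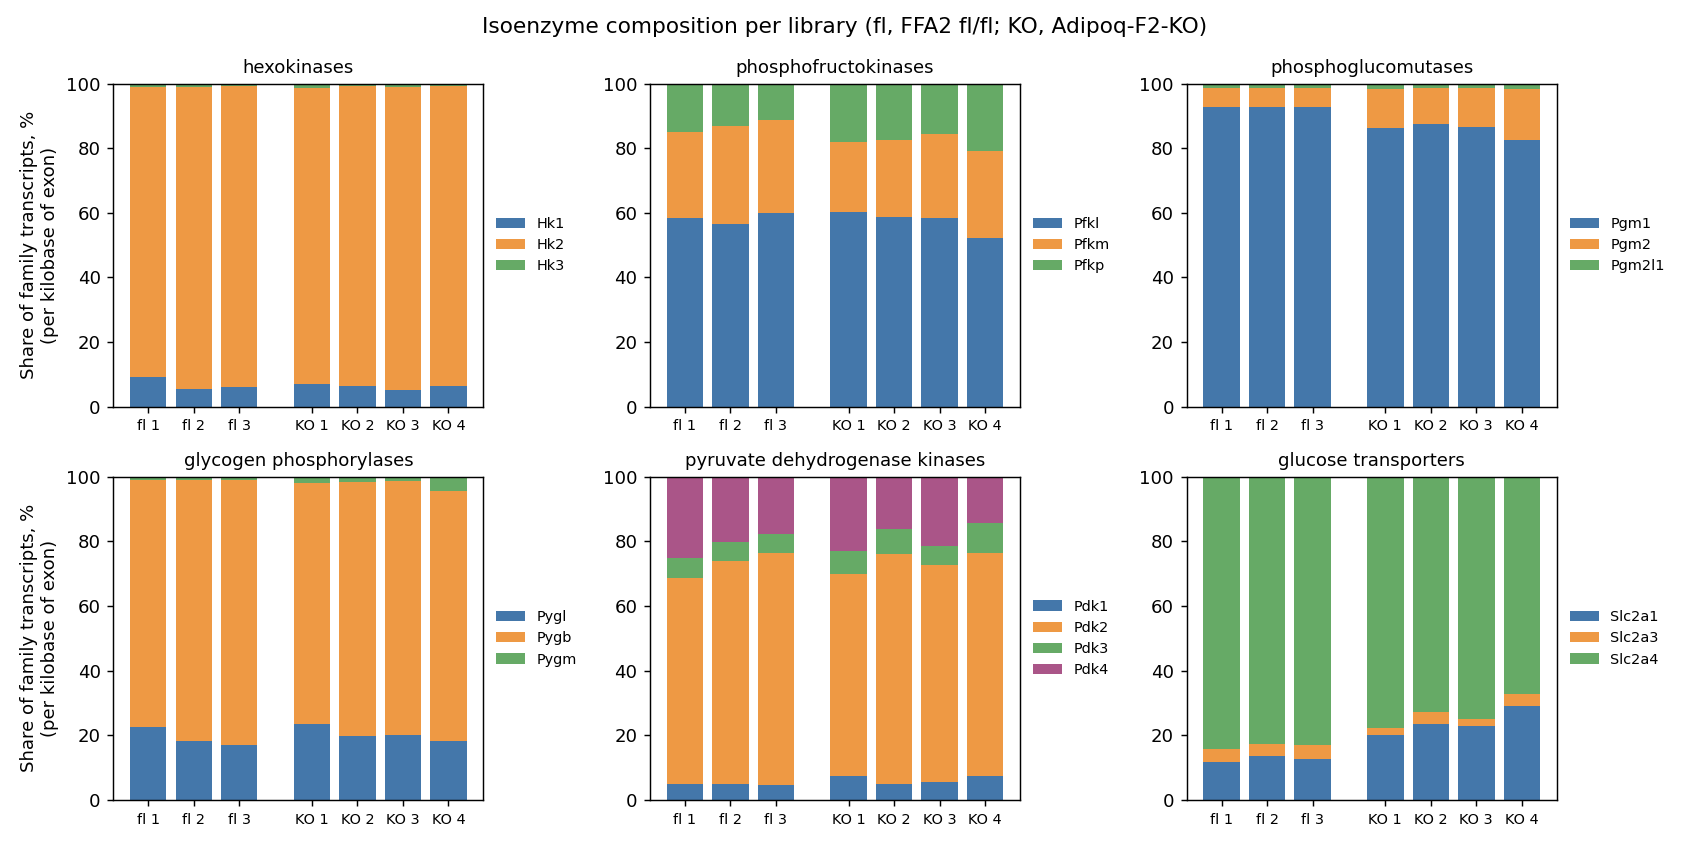
Share of each isoenzyme in its family's signal per kilobase of exon (y axis, %) in each control (fl) and knockout (KO) library. Pgm2 and Slc2a1 take a larger share in all 4 knockout libraries, while Hk2, Pygb and Pdk2 remain the main forms of their families in all libraries.

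Glycogen genes gave no edgeR call. All 4 synthesis genes, Ugp2 (UDP-glucose pyrophosphorylase), Gys1 (glycogen synthase), Gbe1 (branching enzyme) and Gyg (the glycogenin primer), had log2 fold changes between -0.22 and -0.11, with 0 at an unadjusted p under 0.05 (median -0.17). On the breakdown side, Pygb, the brain-type glycogen phosphorylase and the main phosphorylase of these cells, was 644, 686 and 747 CPM in FFA2 fl/fl and 527, 525, 586 and 466 CPM in Adipoq-F2-KO. The lowest control library exceeded the highest knockout library. The log2 fold change was -0.40 ± 0.10 SE, which missed the threshold in edgeR (adjusted p = 0.0835, unadjusted exact permutation p = 0.0286) and passed it in DESeq2 (adjusted p = 0.00548). The permutation p is again the smallest possible, and adds no independent support for a gene described for its small edgeR p. Pygl, the liver-type form, had a log2 fold change of -0.25. Pygm, the muscle-type form, was scarce at 5.69, 6.33 and 5.74 CPM against 8.78, 7.05, 6.80 and 17.0 CPM, without overlap, and library 4 stood far from the rest (log2 0.74 ± 0.30 SE, edgeR adjusted p = 0.225, and log2 0.35 without library 4). Skeletal muscle markers summed to 72.0 to 85.1 CPM in controls and 51.3 to 82.2 CPM in the knockout. Acta1 (12.7 to 46.3 CPM) and Myl1 (37.6 to 44.4 CPM) made up most of that sum, while Ckm and Tnnc2 were at 0 throughout. The part of muscle RNA in the Pygm values was not tested. Pygb contributed 79.8% and 77.3% of phosphorylase signal per kilobase. Of the subunits that bring protein phosphatase 1 to glycogen, Ppp1r3c was 22.6, 18.4 and 28.9 CPM against 21.4, 14.9, 19.2 and 14.4 CPM (log2 -0.41 ± 0.18 SE, adjusted p = 0.263), and Ppp1r3d had a log2 fold change of 0.27 with overlap.

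**Figure D4:**
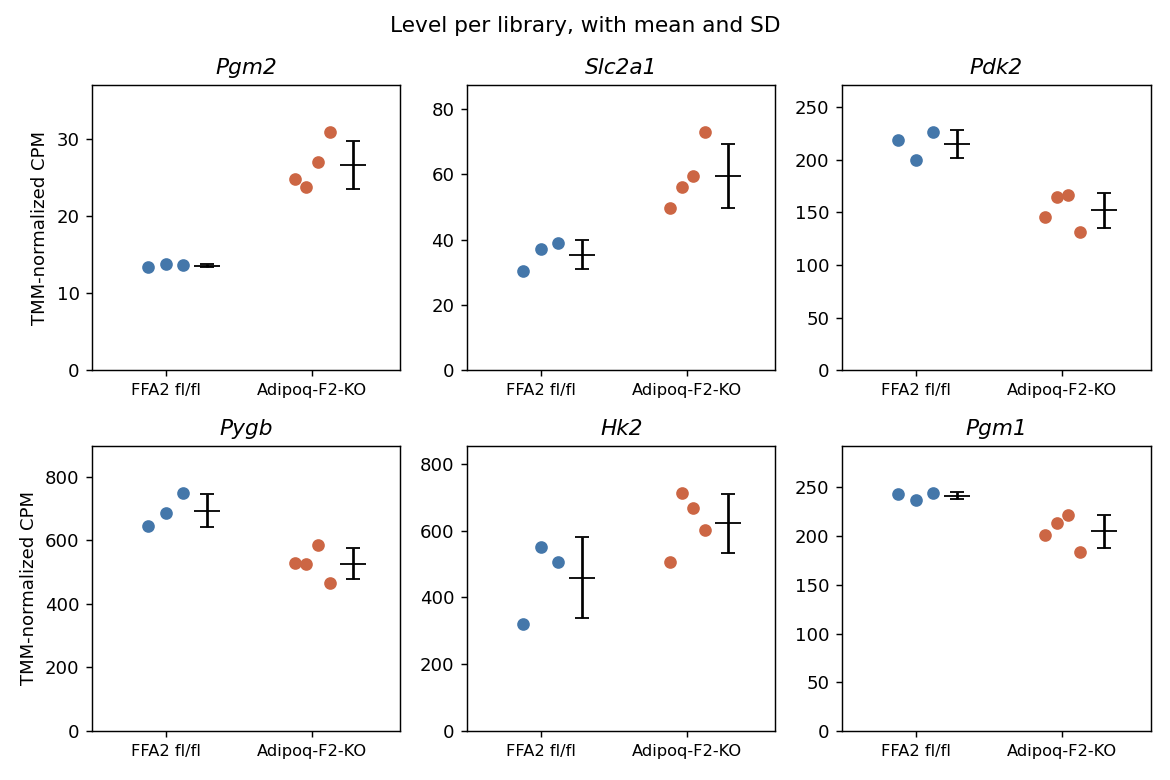
TMM-normalized CPM (y axis) of 6 genes in each library (points) with mean and SD (bars) for FFA2 fl/fl (n = 3) and Adipoq-F2-KO (n = 4). The genotypes separate for Pgm2, Slc2a1, Pdk2, Pygb and Pgm1 and overlap for Hk2, whose FFA2 fl/fl library 1 lies at 321 CPM.

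The pyruvate dehydrogenase kinases, which switch off pyruvate entry into the mitochondrial acetyl-CoA pool, all lay below 0 (4 of 4, median log2 -0.34). Pdk2 (ENSMUSG00000038967, chromosome 11, 94917084 to 94932180) was 219, 199.8 and 226 CPM in FFA2 fl/fl and 146, 164, 167 and 132 CPM in Adipoq-F2-KO. All knockout libraries lay below all controls, with means of 215 ± 13.4 (SD, n = 3) and 152 ± 16.6 CPM (SD, n = 4). It fell by 0.50 ± 0.10 SE on the log2 scale (edgeR adjusted p = 0.0484, unadjusted exact permutation p = 0.0286). That permutation p is the smallest possible with 3 against 4. Pdk2 is described for its small edgeR p, so this value adds no independent support to its call. This call was close to the threshold: it was lost with RLE factors (adjusted p = 0.0503), with upper-quartile factors (0.0501) and with the replicate block (0.0580), and it was kept in 1 of 7 fits that each left out a library (highest adjusted p = 0.240, without FFA2 fl/fl library 1). Pdk4, which fasting and fatty acids induce, was 95.0, 64.4 and 61.5 CPM against 59.2, 40.9, 59.3 and 30.3 CPM, without overlap but with a wide spread (log2 -0.63 ± 0.22 SE, adjusted p = 0.179). Pdk1 (log2 -0.09) and Pdk3 (-0.18) overlapped. Per kilobase Pdk2 made up 68.4% of the kinase signal in controls and 67.6% in the knockout, and Pdk4 20.9% and 18.7%.

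The pentose phosphate enzymes showed no call and 0 genes at an unadjusted p under 0.05, and all 4 lay below 0 (median log2 -0.15). G6pdx and Pgd, the NADPH-producing dehydrogenases, had log2 fold changes of -0.12 and -0.18, and Tkt and Taldo1, which exchange carbon between pentoses and hexoses, of -0.34 and -0.09. G6pdx shares 418 bases of exon with Ikbkg. Pcx, which carboxylates pyruvate to oxaloacetate and was the most abundant of the 42 genes per kilobase in controls (420 ± 41.9 CPM per kilobase, SD, n = 3), was 2193, 1794 and 2003 CPM in FFA2 fl/fl and 1902, 1577, 1777 and 1500 CPM in Adipoq-F2-KO (log2 -0.24 ± 0.11 SE, edgeR adjusted p = 0.287). For scale, Pgm2 stood at 5.24 and 10.3 CPM per kilobase in controls and knockout and Slc2a1 at 10.1 and 17.0, so both called rises were in genes of low level beside Aldoa (408 and 360) or Ldha (227 and 219).

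Other genes of sugar handling gave 3 edgeR calls in all, where calls in either direction made up 1.02% of all tested genes. The number tested in each list is given with its results. Slc16a1, the lactate and pyruvate transporter MCT1, was 52.8, 55.5 and 49.2 CPM in FFA2 fl/fl and 66.0, 78.6, 89.2 and 92.6 CPM in Adipoq-F2-KO (log2 0.64 ± 0.12 SE, edgeR adjusted p = 0.0407). It was the only edgeR call among 15 tested genes of pyruvate entry and lactate transport (5 above 0, 10 below). In that list Slc16a3, the lactate exporter MCT4, had a log2 fold change of 1.13 from 1.69 CPM (edgeR adjusted p = 0.120) and Pdha1, a pyruvate dehydrogenase subunit, of -0.23. Hif1a, the oxygen-regulated activator of many glycolytic genes, was 97.0, 118 and 128 CPM against 147, 203, 185 and 196 CPM (log2 0.68 ± 0.13 SE, adjusted p = 0.0411). Mlxipl, which encodes the glucose-sensing factor ChREBP, was 114, 129.8 and 134 CPM against 95.5, 88.6, 78.8 and 95.0 CPM (log2 -0.49 ± 0.10 SE, adjusted p = 0.0471). For each of these 3 genes the genotypes did not overlap, but leaving out single libraries kept the call of Slc16a1 in 2, Hif1a in 1 and Mlxipl in 1 of 7 fits. Hif1a and Mlxipl were the edgeR calls among 10 regulators of glycolysis, where Myc had a log2 fold change of 0.29 (adjusted p = 0.256). DESeq2 called 2 of the 15 genes higher and 0 lower, and 1 regulator higher and 1 lower. It called 4.67% higher and 1.53% lower of all genes it tested.

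The remaining pathway lists held 0 edgeR calls. DESeq2 called 1 other hexose transporter lower. In glycolysis and gluconeogenesis it called Gapdhs higher and Pck1 lower, and in the sugar conversion list 1 gene higher and 1 lower. It called 0 in the other 2 lists, and 4.67% higher and 1.53% lower of all genes it tested. For the counts at an unadjusted edgeR p under 0.05 given here, the shares over all tested genes were 10.5% higher and 7.37% lower. Of 10 other hexose transporters, 6 lay above 0 and 4 below, with 2 below 0 at an unadjusted p under 0.05, and the smallest p belonged to Slc2a4, Slc2a8 (log2 -0.37) and Slc2a13 (0.32). Of 20 other genes of glycolysis and gluconeogenesis, 8 lay above 0 and 12 below, and 3 had an unadjusted p under 0.05. Among them, Pck1, the glyceroneogenic carboxykinase, averaged 3391 and 2115 CPM without overlap (log2 -0.68 ± 0.19 SE, edgeR adjusted p = 0.113), Ldhd had a log2 fold change of -0.39, and Gapdhs, the sperm-specific form, reached 6.29 CPM in Adipoq-F2-KO library 2 alone, the library with 254 CPM of germ cell markers. Of 17 other glycogen genes, 7 lay above 0 and 10 below, 2 with an unadjusted p under 0.05, led by Gaa (log2 -0.35), Pgm5 (0.60) and Stbd1 (-0.63). Of 9 other pentose phosphate genes, 2 lay above 0 and 7 below, 0 with an unadjusted p under 0.05, led by Tktl1 (at most 1.56 CPM), Pgls (-0.30) and H6pd (-0.25). Of 18 tested genes of a list for galactose, fructose, hexosamine and UDP-sugars that also included Txnip, 3 lay above 0 and 15 below, 6 with an unadjusted p under 0.05. Gfpt2, a rate-limiting enzyme of the hexosamine pathway, was 17.1, 16.5 and 28.6 CPM against 29.3, 37.8, 51.3 and 79.9 CPM (log2 1.26 ± 0.31 SE, adjusted p = 0.0786). Ugdh, which makes UDP-glucuronate, had a log2 fold change of 0.55 and Pmm1, a phosphomannomutase, of -0.42.

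Genes that hypoxia induces, chosen mostly from outside glycolysis, were examined beside Hif1a. Pfkfb4 among them was also in the list of other glycolysis genes. Of 20 tested, 10 lay above 0 and 10 below, with a median log2 fold change of -0.01 and 0 called by edgeR. DESeq2 called 2 higher and 1 lower, beside 4.67% and 1.53% of all genes it tested, and 5 had an unadjusted edgeR p under 0.05. Over all tested genes, 10.5% were higher and 7.37% lower at that unadjusted p. The smallest p belonged to Bhlhe40 (log2 0.60, adjusted p = 0.0577), P4ha2 (-0.50) and Ddit4 (0.50). Of 22 genes that tissue dissociation induces, 14 lay above 0 and 8 below (median log2 0.06), with 0 called by edgeR, 5 at an unadjusted p under 0.05 and 1 called by DESeq2, led by Fosl2 (0.27), Dusp1 (0.35) and Myc. Their summed level was 14472 to 17615 CPM in FFA2 fl/fl and 14825 to 16675 CPM in Adipoq-F2-KO, with overlap.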

How the data were processed

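RNA from mature perigonadal adipocytes (TRIzol, poly-A selected TruSeq stranded mRNA libraries, paired-end 150 bp reads on a NovaSeq X Plus) was processed by the authors with Trimmomatic, STAR and featureCounts. The deposited values are whole-number counts per gene without normalization, with exon length and coordinates. Submitters' notes name GRCm38 and mm10, but the coordinates differ from GRCm38. Versions and the strand, overlap and multiple-match settings are not given in the sources used here. Between 85.5% and 88.8% of counts from 1 to 49 were even, so both mates appear counted. A floor of 3 fragments (6 counts) equals 0.150 to 0.197 CPM, for counting error only. Symbols were matched to 52029 of 57010 identifiers.

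Counts were filtered with filterByExpr (minimum count 10), TMM-normalized and tested two-sided with glmQLFit and glmQLFTest of edgeR 4.0.16 (R 4.3.3), genotype as the only term and Benjamini-Hochberg adjustment over 17039 genes. Biological coefficient of variation was 0.258. DESeq2 1.42.0, limma 3.58.1 voom, other factors, filters and left-out libraries were alternatives. Scripts were tested on simulated data. No pair of libraries within a genotype was alike enough to be a duplicate (chi-square over its degrees of freedom 37.8 to 147). The genes and all lists were chosen with earlier results of these data known. Values per library are given for called genes, the 12 next by p, the main isoenzyme of 6 families and Ffar2, and from each other list the called genes and the 3 with the smallest p are named.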

Additional observations from a re-analysis of the deposited data

Results flagged for a closer look

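Of 79 sets of knockout values checked, 7 had a library whose gap to the nearest of the others, relative to the range of the 4 Adipoq-F2-KO libraries, exceeded Dixon's 95% critical value. Chance gives about 1 in 20. Pfkfb3 was 1290 CPM in library 3 (0.879 of the range). Pgm2l1 was lowest in library 2, at 11.3 CPM (0.872). Gapdhs reached 6.29 CPM (0.901) and the summed male germ cell markers 254 CPM (0.957), both in library 2. In library 4, Tktl1 was 1.56 CPM (0.877) and Fosl2 was 432 CPM (0.91). The summed epididymal epithelium markers were 22.5 CPM in library 3 (0.878). The cause of these values was not tested.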

How the results depend on the processing

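The rise of Pgm2 (log2 0.89 to 0.97) and of Slc2a1 (0.64 to 0.75) kept direction and call with RLE or upper-quartile factors, DESeq2, limma voom, a filter of at least 1 count, removal of mitochondrial genes and abundant identifiers, and the replicate block, and lost the call only when libraries were left out (0.89 to 1.03 and 0.64 to 0.83). Genes called lower among the 42 numbered 0 with RLE factors, with upper-quartile factors and with the replicate block, 2 with DESeq2 and 4 with the filter of at least 1 count, which also called 4 higher. Over all genes DESeq2 called 670 higher and 220 lower, and that filter 1071 and 332, with 5 and 4 against 9 and 8 among the other pathway genes, where the block called 0 lower. The cause of these differences was not tested.

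Leaving out single libraries gave 0 to 151 genes called higher and 1 to 30 lower, 0 to 2 and 0 to 1 of the 42, 4 to 6 and 7 to 11 of the 42 without overlap (over all tested genes 10.7% to 14.9% higher and 10.5% to 14.1% lower in the same fits), and 0 to 4 and 0 to 1 other pathway genes. The median of the 42 stayed between -0.19 and -0.10, and Ffar2 between -4.62 and -4.22. Ldha lay between -0.1164 and 0.0053, above 0 without Adipoq-F2-KO library 2 (0.0053) or 4 (0.004). Of 569 values for the other 41 named genes, 502 kept direction and side of the threshold, 28 lost a call, 37 gained 1 and 2 reversed.

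Replicate numbers showed no sign of pairing the samples: deviations of same-numbered libraries correlated at 0.03, -0.02 and -0.02 over all genes. Such correlations cannot exclude a shared litter or day. With the replicate block, on 3 libraries a genotype, Pgm2 was 0.89 and Slc2a1 0.64, and 3 of the 42 genes (Pgm2, Slc2a1 and Hk2) were called higher, against 188 of all genes. Without division by exon length, mean shares over all libraries were 90.3% instead of 92.5% for Hk2, 72.5% instead of 78.4% for Pygb, 62.3% instead of 67.9% for Pdk2, 90.6% instead of 82.1% for Ldha and 98.7% instead of 96.0% for Eno1. With single libraries left out the shares per kilobase were 92.3% to 93.0% (Hk2), 57.4% to 58.7% (Pfkl), 88.1% to 89.8% (Pgm1), 77.7% to 79.0% (Pygb), 67.2% to 68.8% (Pdk2), 81.9% to 82.4% (Ldha), 95.8% to 96.3% (Eno1) and 76.4% to 79.3% (Slc2a4). Genes near the floor, such as Tktl1, Gapdhs and Aldoc, are limited by depth.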
